A study of Mus musculus with 9 samples.

Results

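The genes of itaconate, nitric oxide (NO) and arginine metabolism were followed in RAW264.7 cells, and 9 of 23282 gene rows made up the set. The members were chosen by symbol, and 7 of them are described: Irg1, Nos2, Ass1, Asl, Slc7a2, Gch1 and Odc1. RAW264.7 is a mouse macrophage line from BALB/c that turns into osteoclast-like cells under RANKL, the cytokine driving that differentiation. RNA was sequenced in 9 libraries, 3 each of the negative control (RANKL alone), heat-killed MJ2-treated cells and surface protein-treated cells. All groups came from the same cell line at passage 30, grown before treatment in DMEM with 10% FBS, and treatment lasted 4 days. The study's other osteoclast assays moved the cells to α-MEM for treatment, and the medium during treatment of the sequenced cells is not given in the sources used here. By the protocols, RANKL was given at 50 ng/mL, heat-killed *Propionibacterium freudenreichii* MJ2, a dairy bacterium, at 10000000 cells/mL, and surface proteins, extracted from that strain with guanidine-HCl, at 10 µg/mL. The library titles give only NC, MJ or SF, and the protocol lists these agents together, so RANKL in the heat-killed MJ2-treated cells is not stated outright. Nothing says that the replicates came from separate cultures, so the p-values measure only the spread between these libraries, which may be technical.

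In macrophages that meet bacterial products, arginine can take competing routes. Inducible nitric oxide synthase (Nos2) turns it into NO and citrulline and needs tetrahydrobiopterin, whose synthesis starts with GTP cyclohydrolase 1 (Gch1), whereas another route leads to ornithine, from which ornithine decarboxylase (Odc1) opens the way to polyamines. Argininosuccinate synthase (Ass1) and lyase (Asl) rebuild arginine from citrulline, and the transporter CAT2 (Slc7a2) brings arginine into the cell. Irg1, also named Acod1, makes itaconate from the citric acid cycle intermediate cis-aconitate and is a well-known inflammatory gene of macrophages.

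Both bacterial preparations went with higher Irg1, Nos2 and Gch1 than RANKL alone, by 48.0-, 49.1- and 15.7-fold in surface protein-treated cells and by 109-, 39.8- and 4.79-fold in heat-killed MJ2-treated cells. With heat-killed MJ2 the rises of Nos2 and Gch1 no longer passed the test when any 1 replicate of that group was left out. Odc1 rose 5.83-fold in heat-killed MJ2-treated cells. Its difference in surface protein-treated cells (0.58 on the log2 scale) lay under the 2-fold limit and did not pass the test. Asl passed the test in no comparison, Slc7a2 lay at or under 3 reads everywhere, and Ass1 was listed at 0 in all 9 libraries. All values below are adjusted reads, the linear form of the deposited log2 values (2 to the value, minus 1), in libraries of 5930926 to 6503682 adjusted reads. The test was passed where limma's Benjamini-Hochberg adjusted p was under 0.05 and the change at least 2-fold, and 3 reads was taken as the least a library could be said to hold. The limma fold changes are on the log2(value + 1) scale, where the constant pulls ratios of low values toward 1. They are ratios of geometric means, and can lie above the ratio of mean adjusted reads where replicates are widely spread.

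**Figure D1:**
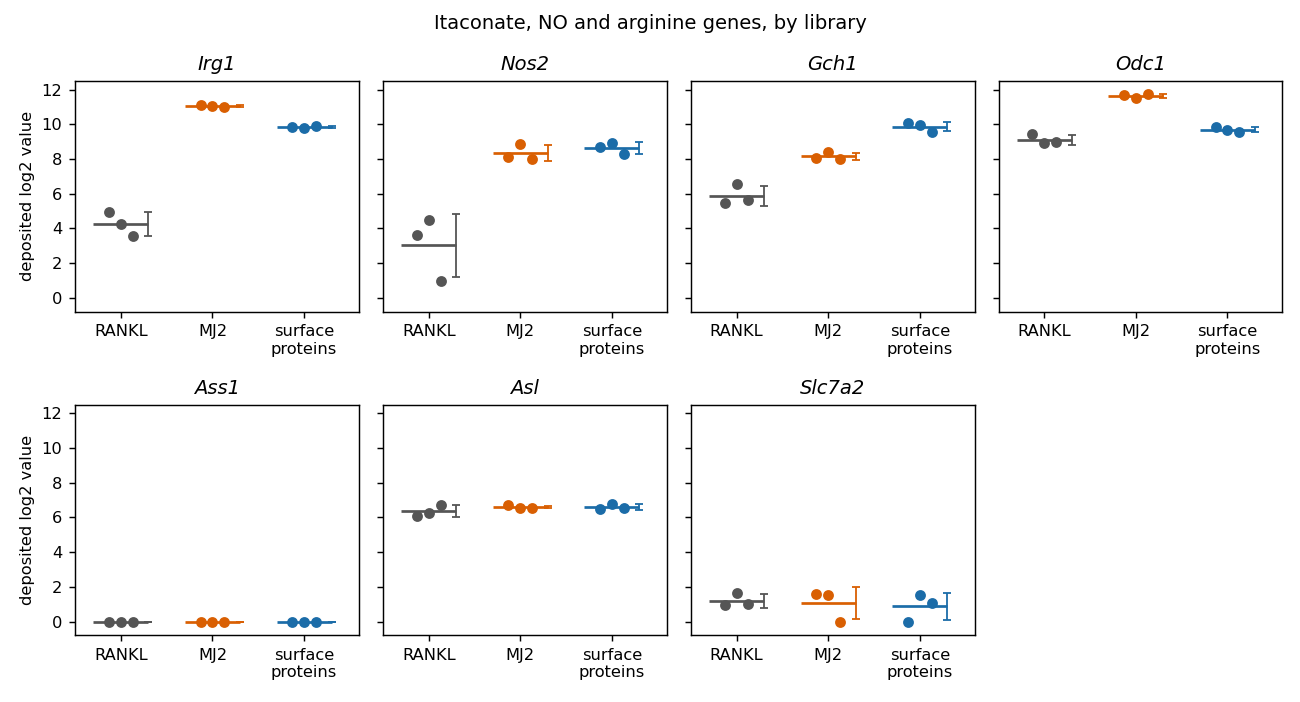
Deposited log2 value (vertical axis, log2 of adjusted reads plus 1) of each of the 7 genes in the 3 libraries of RANKL alone, heat-killed MJ2 (MJ2) and surface proteins. Points are libraries, horizontal lines are group means and error bars are SD (n = 3). Irg1, Nos2 and Gch1 lie higher in all 6 treated libraries than in any library of RANKL alone, and Ass1 lies at 0 throughout.

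The promoters of Irg1, Gch1 and Odc1 are shown because the values of these 3 genes did not overlap between any of the 3 groups, with Gch1 in another order than Irg1 and Odc1. The share of all genes tested that separated in this way was not counted. The sequences are from the RefSeq promoter table on GRCm38.p6, which held an entry for 4 members (Irg1, Ass1, Gch1 and Odc1), each from 250 bases before to 50 bases after the start site. Only the bases before any annotated exon are printed, on the strand of the gene. Capitals mark matches to the motifs searched on both strands: the ISRE core TTTCNNTTT, the GAS element TTCNNNGAA, the E-box CACGTG, the hypoxia response core ACGTG (which lies within the E-box), the TATA box TATAAA and the NF-κB consensus.
Irg1, chr14:103046762-103046976, plus strand: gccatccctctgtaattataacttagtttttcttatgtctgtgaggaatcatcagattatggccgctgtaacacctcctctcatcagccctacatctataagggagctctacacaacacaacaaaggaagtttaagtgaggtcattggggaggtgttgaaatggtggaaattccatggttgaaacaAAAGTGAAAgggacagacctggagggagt
Gch1, chr14:47189414-47189663, minus strand: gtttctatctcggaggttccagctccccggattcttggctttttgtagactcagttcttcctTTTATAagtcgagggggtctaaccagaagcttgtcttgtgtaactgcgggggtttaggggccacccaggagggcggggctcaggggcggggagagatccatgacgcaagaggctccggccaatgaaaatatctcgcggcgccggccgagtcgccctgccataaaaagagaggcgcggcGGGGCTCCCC
Odc1, chr12:17544623-17544793, plus strand: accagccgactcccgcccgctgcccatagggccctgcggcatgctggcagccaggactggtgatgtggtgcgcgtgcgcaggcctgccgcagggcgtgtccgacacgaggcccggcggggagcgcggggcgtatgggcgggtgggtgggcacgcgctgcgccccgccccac

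The Irg1 promoter held the ISRE core, the letters bound by interferon regulatory factors, on its minus strand between positions -64 and -56 from the start site, and 10.6% of 32851 promoter windows of the same length held that core. In the Irg1 window the TATA box was also found at -28 to -23 and the hypoxia response core at -18 to -14, both past the printed bases. The Gch1 promoter matched the NF-κB consensus at -10 to -1, where the letters fit on both strands (8.46% of all windows), and the TATA letters on the minus strand at -188 to -183 (13.6%). The Ass1 window held the E-box at -36 to -31 (7.15%), which contains the hypoxia response core (19.6%). None of the 6 motifs was in the Odc1 window, and the GAS element (8.30% of all windows) was in none of the 4. These matches describe letters only.

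Irg1 (GRCm38, chr14:103046977-103056573, plus strand) was the itaconate-producing enzyme of the set. It held 29.9, 18.4 and 10.9 adjusted reads in the 3 libraries of RANKL alone. It held 2197, 2105 and 2012 in heat-killed MJ2-treated cells and 911, 895 and 962 in surface protein-treated cells. The 3 groups did not overlap, and the order was RANKL alone, surface proteins, heat-killed MJ2. On the log2 scale the means were 4.27 ± 0.69, 9.85 ± 0.05 and 11.04 ± 0.06 in that order (SD, n = 3 each). The log2 difference from RANKL alone was 5.58 in surface protein-treated cells (SE 0.34, adjusted p = 3.670e-04) and 6.77 in heat-killed MJ2-treated cells (SE 0.34, adjusted p = 3.687e-04). Irg1 was 2.28-fold lower with surface proteins than with heat-killed MJ2 (log2 difference -1.19, SE 0.12, adjusted p = 0.00666).

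Nos2 (GRCm38, chr11:78920787-78960254, plus strand), the NO-producing enzyme, held 11.2, 21.7 and 0.97 adjusted reads with RANKL alone. Heat-killed MJ2-treated cells held 277, 468 and 261 adjusted reads, and surface protein-treated cells held 420, 494 and 308. Every treated library lay above every library of RANKL alone, and the treated groups overlapped each other. The means were 3.03 ± 1.83, 8.34 ± 0.46 and 8.65 ± 0.34 (log2, SD, n = 3 each) with RANKL alone, heat-killed MJ2 and surface proteins. The log2 difference was 5.62 for surface proteins (SE 0.86, adjusted p = 0.00619) and 5.31 for heat-killed MJ2 (SE 0.88, adjusted p = 0.0257). Both sizes leaned on replicate 3 of RANKL alone, the library below 1 read, without which they were 4.59 and 4.29, and on replicate 2, the highest of that group, without which they were 6.36 and 6.05. The ratios of mean adjusted reads, 36.1 and 29.8, were also smaller than the fitted folds. Between the treated groups the log2 difference of Nos2 was 0.30, with a 95% confidence interval from -0.40 to 1.01 (adjusted p = 0.490).

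The call of Nos2 in heat-killed MJ2-treated cells was lost without replicate 1 of RANKL alone (adjusted p = 0.0557), without replicate 1, 2 or 3 of heat-killed MJ2 (0.0913, 0.0854 and 0.0843) and with no filter on low values (0.0714). The call in surface protein-treated cells was kept under every alternative that tested the gene, with adjusted p between 0.00122 and 0.0270.

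Gch1 (GRCm38, chr14:47153895-47189413, minus strand) makes the precursor of tetrahydrobiopterin, the cofactor of Nos2. It held 43.0, 92.8 and 49.4 adjusted reads with RANKL alone, 264, 335 and 257 with heat-killed MJ2 and 1065, 998 and 758 with surface proteins. The 3 groups did not overlap, and the order of the treated groups was the reverse of that of Irg1. The log2 difference from RANKL alone was 3.97 for surface proteins (SE 0.32, adjusted p = 8.492e-04) and 2.26 for heat-killed MJ2 (SE 0.31, adjusted p = 0.0146). Without replicate 1, 2 or 3 of heat-killed MJ2 the adjusted p of the second difference was 0.0639, 0.0594 and 0.0593. Gch1 was 3.28-fold higher with surface proteins than with heat-killed MJ2 (log2 difference 1.71, SE 0.19, adjusted p = 0.00742).

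Odc1 (GRCm38, chr12:17544794-17551505, plus strand), the enzyme that makes putrescine from ornithine, held 690, 477 and 510 adjusted reads with RANKL alone. It held 3308, 2960 and 3417 in heat-killed MJ2-treated cells and 905, 823 and 756 in surface protein-treated cells. The groups did not overlap in any of the 3 comparisons. Odc1 rose 5.83-fold in heat-killed MJ2-treated cells (log2 difference 2.54, SE 0.18, adjusted p = 0.00136). In surface protein-treated cells the log2 difference from RANKL alone was 0.58, with a 95% confidence interval from 0.13 to 1.04 (adjusted p = 0.0618). Over the alternatives this difference ran from 0.48 to 0.74, always under the 2-fold limit, with limma's adjusted p from 0.00728 to 0.153. Odc1 was 3.90-fold lower with surface proteins than with heat-killed MJ2 (log2 difference -1.96, SE 0.14, adjusted p = 0.00364).

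Of the enzymes that rebuild arginine from citrulline, Ass1 (GRCm38, chr2:31470207-31520672, plus strand) was listed at 0 in all 9 libraries. Whether such a 0 is an absence of transcript or a failed estimate cannot be told from these values. Asl (GRCm38, chr5:130011258-130029247, minus strand) held 65.6, 76.6 and 105 adjusted reads with RANKL alone, 102, 93.8 and 93.2 with heat-killed MJ2 and 89.1, 110 and 91.1 with surface proteins. The groups of Asl overlapped throughout. Its log2 difference from RANKL alone was 0.25 for both treatments, with 95% confidence intervals from -0.26 to 0.77 for surface proteins (adjusted p = 0.409) and from -0.23 to 0.73 for heat-killed MJ2 (adjusted p = 0.507). Slc7a2 (GRCm38, chr8:40862396-40922308, plus strand), the inducible arginine transporter, was listed between 0 and 2.13 adjusted reads in the 9 libraries, all under the floor, so that no difference was detectable at this depth.

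Read against the whole table, 5 of the 7 members described passed the filter on low values in each comparison, and Ass1 and Slc7a2 did not. In surface protein-treated cells limma called 3 of these 5 higher than with RANKL alone and 0 lower (0 also at an unadjusted p under 0.05), where 10.2% of all genes tested were called higher and 7.32% lower. In heat-killed MJ2-treated cells limma called 4 higher and 0 lower (0 also at an unadjusted p under 0.05), with 3.37% and 0.897% of all genes tested. Without replicate 1, 2 or 3 of heat-killed MJ2 this count was 2 each time, while 81, 155 and 116 genes of the whole table passed in place of 461, and without replicate 1 of RANKL alone it was 3. With surface proteins against heat-killed MJ2, 1 was called higher (Gch1) and 2 lower (Irg1 and Odc1), with 5.08% and 4.97% of all genes tested. The members were chosen with earlier results of these libraries known, so these counts are a description. The comparisons share libraries and are not independent of each other. For Irg1, Gch1 and Odc1 the exact permutation p (two-sided) was 0.1, the smallest that 3 against 3 libraries allow, in each comparison. How many of all genes tested reach that value was not counted.

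**Figure D2:**
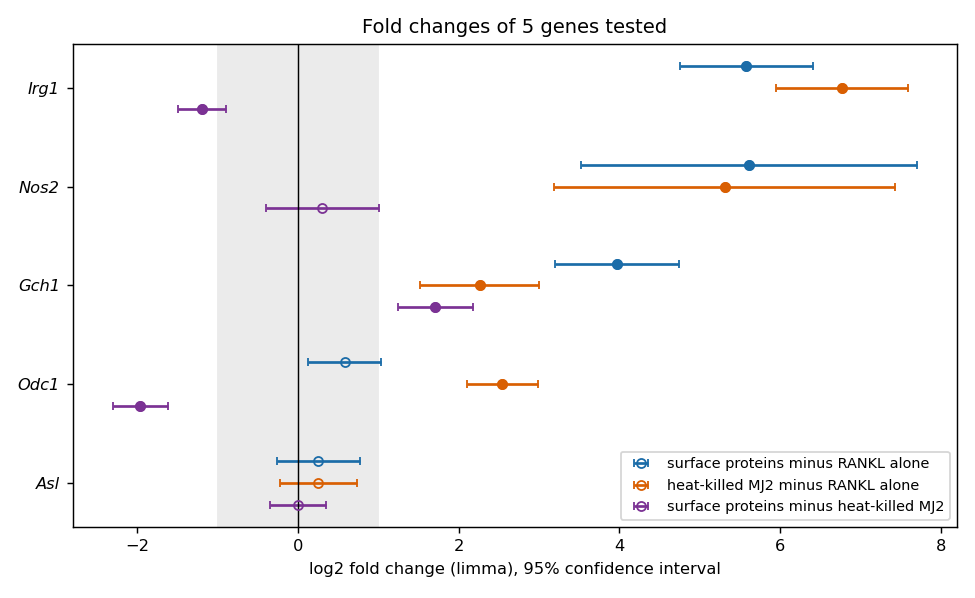
Log2 fold change by limma (horizontal axis) of 5 members that passed the filter on low values, with 95% confidence intervals, for the 3 comparisons in colour. Filled points passed the test, open points did not, and the grey band marks changes under 2-fold. The difference between surface proteins and heat-killed MJ2 lies below 0 for Irg1 (-1.19) and Odc1 (-1.96) and above 0 for Gch1 (1.71).

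The arginine transport list held genes linked to arginine transport other than Slc7a2, and not only carriers that bring arginine into the cell. In surface protein-treated cells 3 of the 5 measured members rose by limma, beside 10.2% of all genes tested, and 0 fell (0 also at an unadjusted p under 0.05), with a median log2 fold change of 1.56 beside -0.01 over all genes tested. Slc7a1, the constitutive cationic transporter CAT1, held 652 to 887 adjusted reads with RANKL alone, 1152 to 1302 with heat-killed MJ2 and 1987 to 2253 with surface proteins, and rose 2.96-fold with surface proteins (adjusted p = 0.00222). Slc3a2, the heavy chain that carries several amino acid transporters to the membrane, rose 6.11-fold with surface proteins (log2 difference 2.61, SE 0.24, adjusted p = 0.00123) and 2.52-fold with heat-killed MJ2 (1.33, SE 0.28, adjusted p = 0.0470). Slc7a7, its light chain for cationic amino acids, rose 3.47-fold with surface proteins (adjusted p = 0.0372). In heat-killed MJ2-treated cells Slc3a2 was the 1 of 5 called, beside 3.37% of all genes tested called higher, and the median was 0.52 beside -0.004 over all genes tested. Slc3a2 was also the 1 of 5 called between the treated groups, 2.43-fold higher with surface proteins (adjusted p = 0.0177), beside 5.08% of all genes tested called higher.

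Among the 16 NO synthesis partners and NO targets, 11 passed the filter on low values, among them the calmodulins, heat shock protein 90 and the endothelial NO synthase Nos3. By limma's test 0 of the 11 passed in any comparison. Of all genes tested, 10.2% were called higher and 7.32% lower with surface proteins. With heat-killed MJ2 these shares were 3.37% and 0.897%, and between the treated groups 5.08% and 4.97%. At an unadjusted p under 0.05 there were 5 of the 11 with surface proteins (42.3% of all genes tested), 2 with heat-killed MJ2 (22.6%) and 4 between the treated groups (35.3%). The guanylate cyclase subunits Gucy1a3 and Gucy1b3 were listed at 0 in all libraries and were not tested. The neuronal NO synthase Nos1, also not tested and named after its values were seen, held 0, 1.16 and 1.96 adjusted reads with RANKL alone, 6.15, 0 and 2.93 with heat-killed MJ2 and 7.82, 28.0 and 31.3 with surface proteins. In the tetrahydrobiopterin list, which holds the steps after Gch1, 0 of 7 measured genes were higher by limma in any comparison, 0 also at an unadjusted p under 0.05. With 7 genes this is near the shares of all genes called higher (10.2%, 3.37% and 5.08%). With surface proteins 5 of the 7 lay below 0, and 2 of them had an unadjusted p under 0.05 (42.3% of all genes tested, in either direction). Akr1b3, an aldose reductase that can act in that pathway, fell 4.27-fold with surface proteins (log2 difference -2.09, SE 0.50, adjusted p = 0.0257). Its values with RANKL alone, 5426, 2044 and 1306 adjusted reads, were widely spread beside 619, 494 and 607 with surface proteins. Pts, which follows Gch1 in the pathway, had a log2 difference of -0.48 with surface proteins (adjusted p = 0.146) and -0.54 with heat-killed MJ2 (adjusted p = 0.171).

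**Figure D3:**
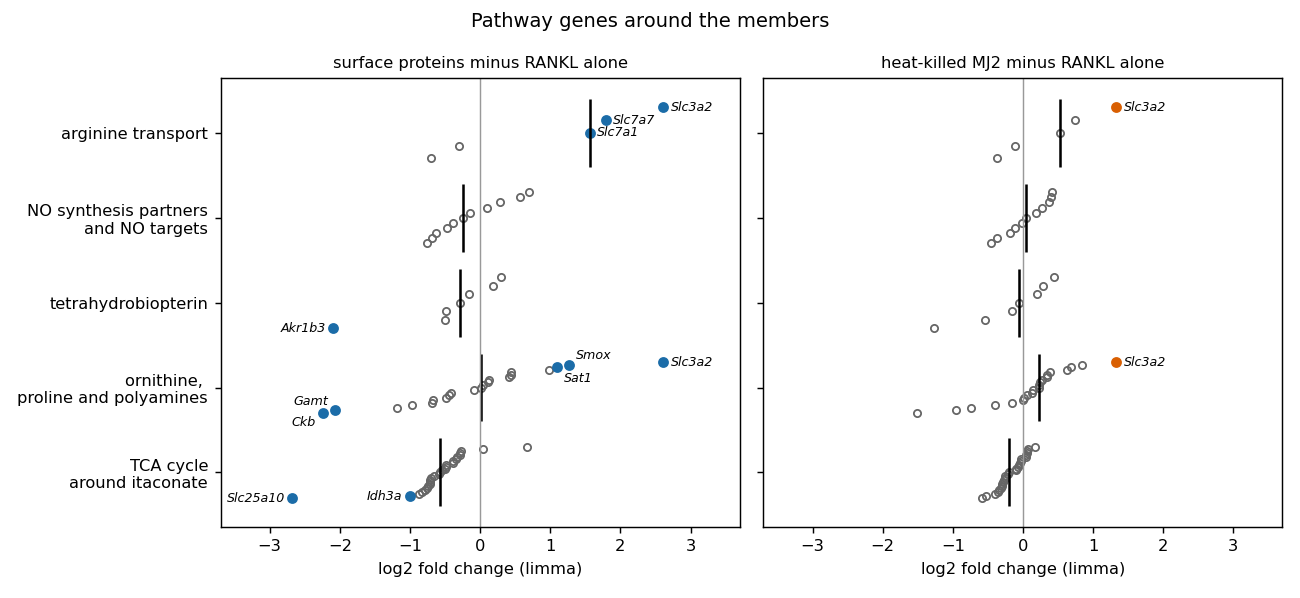
Log2 fold change by limma (horizontal axis) of every measured gene of 5 pathway lists, for surface proteins (left) and heat-killed MJ2 (right) against RANKL alone. Filled points passed the test and carry their names, open points did not, and black bars are list medians. The arginine transport median lies at 1.56 on the left and 0.52 on the right, and the TCA cycle median at -0.58 and -0.20.

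Past Odc1, the list of ornithine, proline and polyamine genes had 21 measured members. With surface proteins 3 rose and 2 fell, shares near those of all genes tested (10.2% and 7.32%), with a median of 0.02. By adjusted p alone 9 of the 21 passed, 5 of them lower, beside 29.1% of all genes tested. Besides Slc3a2, Smox, a spermine oxidase, rose 2.40-fold (219, 273 and 182 adjusted reads with RANKL alone against 508, 559 and 535, adjusted p = 0.00509). Sat1, which acetylates spermidine and spermine for breakdown or export, rose 2.14-fold (adjusted p = 0.0112), and was named after its value was seen. Ckb, the brain-type creatine kinase, fell 4.75-fold (adjusted p = 0.00861), and Gamt, which makes creatine, fell 4.19-fold (adjusted p = 0.00334). Gatm, the enzyme before Gamt in creatine synthesis, had a log2 difference of 0.02 (adjusted p = 0.955). With heat-killed MJ2 only Slc3a2 of this list passed, a share near the 3.37% of all genes tested, and the 20 others, Smox included (log2 difference 0.06, 95% confidence interval from -0.50 to 0.61), did not. Between the treated groups 2 of 20 measured genes were called higher with surface proteins and 2 lower, beside 5.08% and 4.97% of all genes tested. These were Slc3a2 and Smox (2.31-fold higher, adjusted p = 0.0140), and Ckb (2.84-fold lower, adjusted p = 0.0295) and Gamt (2.17-fold lower, adjusted p = 0.0450).

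**Figure D4:**
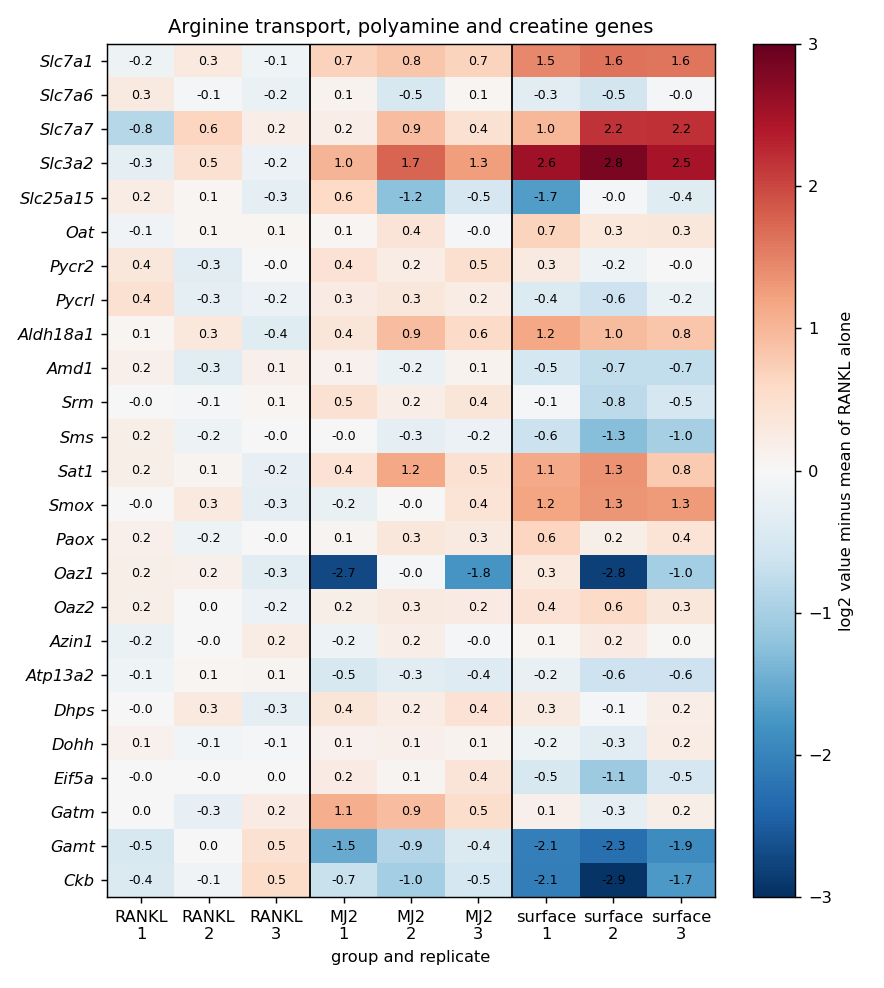
Log2 value minus the mean of RANKL alone (colour and number) for each measured gene of the arginine transport and the ornithine, proline and polyamine lists, in the 9 libraries (columns, group and replicate). Slc7a1 and Slc3a2 lie higher in each surface protein library than in any other library, and Gamt and Ckb lie lower.

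The list of TCA cycle genes around itaconate had all 27 members measured. With surface proteins 2 fell, a share near the 7.32% of all genes tested, and the median was -0.58. The log2 difference of 25 of the 27 lay below 0, beside 50.5% of all genes tested. By adjusted p alone, without the 2-fold limit, 13 of the 27 passed, 12 of them lower, beside 29.1% of all genes tested in either direction. Slc25a10, the mitochondrial dicarboxylate carrier, fell 6.41-fold (157, 191 and 145 adjusted reads with RANKL alone against 11.7, 20.1 and 61.6, adjusted p = 0.0166). Idh3a, a subunit of the isocitrate dehydrogenase of the cycle, fell by 1.00 on the log2 scale (SE 0.19, adjusted p = 0.0115). With heat-killed MJ2, 0 of the 27 passed limma's test, near the shares of all genes called higher (3.37%) and lower (0.897%). At an unadjusted p under 0.05, 3 lay lower and 0 higher (22.6% of all genes tested, in either direction), and the median was -0.20. The log2 difference of 21 of the 27 lay below 0, beside 50.5% of all genes tested. Slc25a10 was 5.28-fold lower with surface proteins than with heat-killed MJ2 (adjusted p = 0.0346).

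Of 15 transcription factors known from other work to act on the members, 13 were measured. With surface proteins 4 rose, beside 10.2% of all genes tested: Irf8, an interferon regulatory factor of macrophages, by 7.13-fold (adjusted p = 0.00756), Klf4 by 4.09-fold (adjusted p = 0.00287), Atf4, the factor of the amino acid stress response, by 3.61-fold (adjusted p = 0.00223) and Cebpb by 3.39-fold (adjusted p = 0.0125). By limma 0 of the 13 fell in any comparison, 0 also at an unadjusted p under 0.05. With 13 genes the count called is near the shares of all genes called lower. These were 7.32% with surface proteins, 0.897% with heat-killed MJ2 and 4.97% between the treated groups. Atf4 held 2348, 3396 and 2128 adjusted reads with RANKL alone, 4665, 5598 and 3600 with heat-killed MJ2 and 9640, 9461 and 8749 with surface proteins. Neither Atf4 nor Irf8 overlapped between groups, in the order seen for Gch1, and the means of Klf4 and Cebpb had that order too. Between the treated groups 3 of the 13 were called higher, beside 5.08% of all genes tested. Atf4 was 2.04-fold (adjusted p = 0.0209) and Klf4 3.18-fold (adjusted p = 0.0299) higher with surface proteins than with heat-killed MJ2, and Irf8 was higher by 1.00 on the log2 scale (adjusted p = 0.0339).

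The gene rows most like each member were listed by Pearson's r of the log2 values over the 9 libraries, which share 3 groups, as a description. Nearest to Irg1 were Csf3 (r = 0.994), Tnf (0.991), Ptgs2 (0.991), Creb5 (0.990) and Phlda1 (0.990). Nearest to Nos2 were Lgals9 (0.994), Ikbke, Rtp4, Basp1 and Lyz1. Nearest to Gch1 were Asns, an asparagine synthetase (0.993), Arhgef3, Hal, Mndal and Slc3a2 (0.989), the last a member of the arginine transport list. Nearest to Odc1 were Il1rn (0.982), Tmsb4x, Cd52, Serpinb2 and P2ry6 (0.959).

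Markers of other cell states moved with the same groups. The summed osteoclast markers ran from 29882 to 40526 adjusted reads with RANKL alone, from 20425 to 24734 with heat-killed MJ2 and from 8210 to 11671 with surface proteins, and 3 and 8 of 12 measured markers fell with heat-killed MJ2 and surface proteins (beside 0.897% and 7.32% of all genes tested), among them Acp5 (2.16- and 6.33-fold). The summed macrophage markers ran from 26812 to 27869, from 32317 to 33028 and from 29874 to 32447. Of 12 measured macrophage markers, 3 rose with heat-killed MJ2 (beside 3.37% of all genes tested), and 4 rose and 1 fell with surface proteins (beside 10.2% and 7.32%). Cd14 (8.57- and 5.16-fold), Itgam and Lyz2 rose with both treatments, Adgre1 rose with surface proteins, and Csf1r fell with surface proteins. At an unadjusted p under 0.05, 6 of the 12 lay higher and 3 lower with heat-killed MJ2 (22.6% of all genes tested, in either direction). With surface proteins 8 lay higher and 2 lower at that p (42.3%). In these bulk libraries, fewer cells of a type and less RNA per cell cannot be told apart, and the part of these states in the members' values was not tested. Of 10 lymphocyte and neutrophil markers with a row, 9 lay at or under 3 reads in every library. The other was S100a8, which macrophages can also express, at 1899 to 2056 adjusted reads with heat-killed MJ2, 113 to 209 with surface proteins and at most 0.11 with RANKL alone. The summed fibroblast and epithelial markers stayed between 6.61 and 49.1 adjusted reads in all libraries. Of 12 reference genes, 0 passed against RANKL alone in either treated group by limma. At an unadjusted p under 0.05 there were 8 with surface proteins and 4 with heat-killed MJ2, beside 42.3% and 22.6% of all genes tested. Between the treated groups 1 was called, Tubb5, 2.17-fold lower with surface proteins, beside 4.97% of all genes tested called lower.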

How the data were processed

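Total RNA of 9 libraries (3 per group) was sequenced by the authors with a QuantSeq 3′ kit as 75-base single-end reads. The deposited files hold log2 values for 23282 gene rows, with a constant of 1 included. The submitters' processing notes name Bowtie2, bedtools and mm10. The methods name quantile normalization, but sorted columns differed by up to 1.60 log2, so the scaling is not known. The counting of reads shared between genes is not given in the sources used here.

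Groups came from the labels. Because the values are not counts, limma 3.58.1 (R 4.3.3; lmFit, eBayes) was used on each comparison's 6 libraries, where a gene reached 10 adjusted reads in 3 or more of them, with Benjamini-Hochberg adjustment over all of them. The smallest exact permutation p at 3 against 3 was 0.1. The fit was tested on simulated data. Files were read with Python 3.11.15 (pandas 2.3.3). Named were the members, up to 4 called genes of each list with the largest change per comparison, and the 5 genes most like a member. Pts, Gatm, Nos3, Nos1, Gucy1a3, Gucy1b3, Sat1, Csf1r, Oaz1 and Azin1 fall outside this rule and were chosen after their values were seen. A few genes that this rule covers are not reported here. The members and the 11 gene lists, written from general knowledge, were chosen with earlier results of these data known. Gene positions are from GENCODE M21. In 3 libraries 15503 rows lay above 0, so a value well under 1 does not mark a read, and the floor of 3 reads covers counting error only. Alternatives were other filters, constants, scalings and thresholds, 1 fit of all 9 libraries, a replicate block and leaving out each library.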

Additional observations from a re-analysis of the deposited data

How the results depend on the processing

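Of 286 recomputed member fold changes, 273 kept their direction and side of the threshold, 8 lost the call (all Nos2 or Gch1 with heat-killed MJ2) and 5 turned direction. Those 5 were Asl between the treated groups, a value near 0: -0.0806 with equal totals, -0.0584 with equal totals without Rn45s and from -0.0963 to 0.0572 leaving out each library. With 10 adjusted reads demanded in every library, Nos2 was not tested against RANKL alone. Over all alternatives, the adjusted p with heat-killed MJ2 ran from 0.00571 to 0.0913 for Nos2 and from 9.593e-06 to 0.0639 for Gch1. The members called there numbered from 2 to 4 leaving out each library, 2 without any 1 replicate of heat-killed MJ2 and 3 without replicate 1 of RANKL alone.

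Over all genes, 461 passed with heat-killed MJ2, 267 with no filter on low values, 289 with the replicate block, 799 by the unadjusted p with the fold limit, and from 81 to 347 leaving out each library. With surface proteins 1901 passed, and 3163 by adjusted p alone. Between the treated groups 1098 passed, 1949 by adjusted p alone, and from 362 to 1176 leaving out each library. The cause was not tested beyond fewer libraries giving a weaker test. Deviations of same-numbered libraries correlated between 0.018 and 0.106, so the numbers were not taken as pairs, although each library correlated best with its own number. Under the replicate block 1813, 289 and 980 genes passed, and the member counts stayed at 3, 4 and 3.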

Other observations

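Oaz1, the antizyme that binds ornithine decarboxylase and sends it to breakdown, was chosen after its values were seen. It held 21.6, 21.5 and 14.8 adjusted reads with RANKL alone, 2.07, 18.4 and 4.88 with heat-killed MJ2 and 23.5, 1.87 and 8.84 with surface proteins. The spread within each treated group covered nearly the whole range of the 9 libraries. Azin1, which binds antizyme in place of Odc1, held between 496 and 681 adjusted reads in the 9 libraries, and the groups overlapped.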
